A study of Homo sapiens with 18 samples.

Results

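The 8 genes OMA1, DELE1, EIF2AK1, EIF2AK2, EIF2AK3, EIF2AK4, PPP1R15A and PPP1R15B were described across 18 RNA libraries of HAP1 cells, a human line with a nearly haploid genome that goes back to a chronic myeloid leukaemia. They were chosen by symbol, as the genes that set the phosphorylation of the translation factor eIF2alpha above the transcription factor ATF4, and make up 8 of the 59251 genes counted. All 8 were found in the tables, and all 8 passed the filter on low counts. The study compares cells that express SARS2, the mitochondrial seryl-tRNA synthetase, with cells labelled as having been without its expression for 3, 6 or 9 days. The genotype delSARS2+SARS2-1xFLAG, called the SARS2 line here, has SARS2 deleted and a SARS2 transgene with a FLAG tag added. It was sampled with 15 ng/mL doxycycline and, per the labels, at days 3, 6 and 9 after doxycycline was withdrawn. The unmodified parental line was sampled without doxycycline, for a number of days that the labels do not give, and with it at the same dose. Each of the 6 groups held 3 libraries. All cells grew in IMDM medium, and per the labels all were kept in doxycycline until it was withdrawn. The promoter of the transgene, the kind of deletion and whether the line is a single clone were not stated in the labels.

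The phosphorylation of eIF2alpha is the switch of the integrated stress response. Kinases put the phosphate on under different stresses: EIF2AK1 (HRI) when haem is short or mitochondria are impaired, EIF2AK2 (PKR) on double-stranded RNA, EIF2AK3 (PERK) when proteins misfold in the endoplasmic reticulum (ER), and EIF2AK4 (GCN2) when amino acids run short. Mitochondrial stress reaches EIF2AK1 through a relay in which OMA1, a protease of the inner mitochondrial membrane, cleaves DELE1, whose fragment collects in the cytosol and binds the kinase. Phosphorylated eIF2alpha blocks its exchange factor eIF2B, which lowers general translation while favouring translation of ATF4. PPP1R15A (GADD34), itself a known target of ATF4 and CHOP, and PPP1R15B (CReP), its constitutive counterpart, bring protein phosphatase PP1 to eIF2alpha and take the phosphate off again. These libraries measure messenger RNA, so kinase activity, cleavage and phosphorylation were not observed.

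Libraries held 66850705 to 111123481 counts assigned to genes. SARS2 checks the labels, and its counts went against them: it was not lower in any group labelled as without doxycycline than in the SARS2 line with it. SARS2 averaged 24.2 ± 0.923 CPM (counts scaled by library size with TMM, edgeR's composition factor; SD, n = 3) under doxycycline, 31.6 ± 0.986 in libraries labelled day 3, 24.7 ± 1.3 in those labelled day 6 and 41.8 ± 7.16 in those labelled day 9. Every direction given below for a day therefore rests on the label alone. Reads of the transgene and of any RNA left from the deleted locus fall under 1 gene name, so the count could not tell them apart. Of 10 haematopoietic markers GATA1, HBG1, HBG2 and CD3E had 0 counts in all libraries, and the summed level of all 10 was at most 0.84 CPM. Of 7 mesenchymal markers, VIM stood at 401 to 1010 CPM, CDH2 at 52.8 to 97.3, COL1A1 at 7.63 to 27.6 and FN1 at 6.39 to 13.9. The others were near the floor, with THY1, PDGFRB and COL1A2 at most 1.8, 0.645 and 0.0216 CPM. The 2 fusion partners of the parent leukaemia, BCR and ABL1, stood at 18 to 31 CPM. In bulk RNA, fewer cells expressing a gene and less RNA per cell cannot be told apart.

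Promoters from RefSeq (build GRCh38.p14) were available for 7 of the 8 genes, EIF2AK1 being the one without. In a window from 250 bases before to 50 bases after the start that RefSeq's promoter table gives each gene, 4 short motifs were searched on both strands. For EIF2AK3 the bases before that start (chr2:88627465-88627714) lie inside the gene as the count tables place it, so its window is not upstream of the start given below. The motifs were TGATGNAAN, the C/EBP-ATF response element bound by ATF4 with C/EBP partners; TGACGTCA, the cyclic AMP response element; the interferon-stimulated response element, GAAA and GAAACT with any 2 bases between them; and the CCAAT box. Shown first are the 250 bases before the start of both phosphatase genes, the members that differed most between groups (chr19:48872171-48872420, plus strand, and chr1:204411818-204412067, minus strand), and then 30 bases around the start of EIF2AK2 (chr2:37156966-37156995, minus strand), the known interferon-inducible member. Capitals mark the motif matches.
PPP1R15A: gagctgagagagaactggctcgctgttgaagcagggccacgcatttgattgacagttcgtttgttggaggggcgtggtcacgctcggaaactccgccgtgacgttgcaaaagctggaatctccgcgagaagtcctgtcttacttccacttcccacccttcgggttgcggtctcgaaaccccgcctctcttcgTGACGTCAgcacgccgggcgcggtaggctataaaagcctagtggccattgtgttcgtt
PPP1R15B: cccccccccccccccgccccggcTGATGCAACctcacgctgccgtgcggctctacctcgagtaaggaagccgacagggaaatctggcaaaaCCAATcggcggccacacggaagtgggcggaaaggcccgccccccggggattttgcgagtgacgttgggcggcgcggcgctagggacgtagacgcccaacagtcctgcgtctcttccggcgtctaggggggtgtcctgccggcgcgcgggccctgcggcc
EIF2AK2: gtccaagggGAAAACGAAACTgagaaccag
The PPP1R15A sequence holds TGACGTCA at bases -58 to -51 from the start, a palindrome that reads the same on both strands and occurs in 1.85% of 35116 promoters. The PPP1R15B sequence holds TGATGCAAC at -227 to -219, a match found in 3.61% of promoters, and a CCAAT box at -159 to -155. The EIF2AK2 stretch holds GAAAACGAAACT across the start, from -6 to 6, which 0.273% of promoters have. CCAAT boxes were also found in DELE1, EIF2AK2 and EIF2AK3, against 34.6% of all promoters, and OMA1 and EIF2AK4 had none of the 4 motifs. No motif overlapped another. A match describes these letters and is no evidence of binding.

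The 8 genes lie on chromosomes 1, 2, 5, 7, 15 and 19 (GRCh38, coordinates from the tables). OMA1 (chr1:58480719-58546726) and PPP1R15B (chr1:204395826-204411817) are on the minus strand of chromosome 1, and EIF2AK2 (chr2:37099210-37156980) and EIF2AK3 (chr2:88556741-88628145) on the minus strand of chromosome 2. DELE1 (chr5:141923871-141942047), EIF2AK4 (chr15:39934115-40035591) and PPP1R15A (chr19:48872421-48876058) are on the plus strand, and EIF2AK1 (chr7:6022247-6059175) on the minus strand. They differ widely in span: PPP1R15A covers 3638 bases in 3 merged exons, EIF2AK4 101477 bases in 39. GC content, taken from the longest GENCODE transcript of each gene, ran from 38.7% for EIF2AK2 to 58.8% for PPP1R15A. The count columns end in HISAT2_RF, where RF may name a strand setting of the aligner. Whether the counting used strand is not stated in the labels, so how reads at shared exons were assigned is not known. EIF2AK1 shares 532 exonic bases (11.88% of its exonic length) with AIMP2 on the other strand, which had 2910 to 11513 counts, and EIF2AK3 shares 317 bases (5.88%) with its divergent transcript EIF2AK3-DT, which had 29 to 202. OMA1 shares 249 bases with DAB1 on its own strand, which had at most 6 counts.

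Compared per kilobase of exonic length, the messenger RNA of EIF2AK1 was the most abundant of the 8. Its mean level over the 18 libraries was 53 CPM per kb, followed by EIF2AK4 at 27.5, EIF2AK2 at 14.8, PPP1R15B at 13, DELE1 at 9.77, OMA1 at 9.19, PPP1R15A at 5.66 and EIF2AK3 at 4.13 CPM per kb. EIF2AK1 ran from 47.3 to 58.7 CPM per kb, above every library of the other 7 genes. EIF2AK4 ran from 22.3 to 33.3 CPM per kb, and only the highest PPP1R15B library, at 22.5, reached into that range. The ranges of PPP1R15B, DELE1 and OMA1 overlapped each other, as did those of PPP1R15A and EIF2AK3. EIF2AK1 made up 57.2 ± 1.8% of the summed per-length level of the 4 kinases in libraries labelled day 9, and 53.5 ± 1.5% in the SARS2 line with doxycycline. In the parental line the share was 51.4 ± 0.764% without doxycycline and 50 ± 0.513% with it (SD, n = 3). Per length, the kinase known to receive the mitochondrial relay thus held at least 49.6% of the kinase messenger RNA in every library. This share depends on the length used, 4480 bases for EIF2AK1 and 10209 for EIF2AK2, and the expressed isoforms were not examined. Without division by length, the SARS2 line with doxycycline averaged 237 CPM for EIF2AK1, 152 for EIF2AK4, 149 for EIF2AK2 and 22 for EIF2AK3. The part of the 532 exonic bases that EIF2AK1 shares with AIMP2 was not tested.

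**Figure D1:**
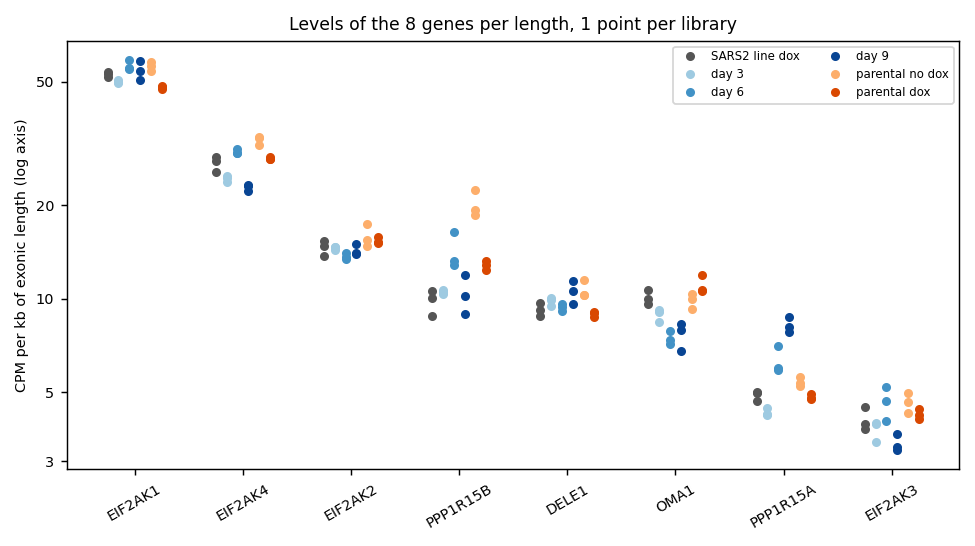
Level of each of the 8 genes in CPM per kilobase of exonic length (log axis), with 1 point per library and colours for the 6 groups. EIF2AK1 lies between 47.3 and 58.7 CPM per kb in all 18 libraries, above EIF2AK4 and the other genes, and EIF2AK3 lies lowest on average.

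The widest spread between groups belonged to the phosphatase genes. PPP1R15B differed 2.05-fold between its highest group mean (parental line without doxycycline) and its lowest (SARS2 line with doxycycline), and PPP1R15A 1.91-fold between libraries labelled day 9 and day 3. OMA1 differed 1.48-fold, EIF2AK4 1.42-fold and EIF2AK3 1.36-fold, while DELE1, EIF2AK1 and EIF2AK2 stayed within 1.2-fold, 1.17-fold and 1.16-fold.

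At an adjusted p under 0.05 (edgeR's quasi-likelihood test, Benjamini-Hochberg over 21615 genes), members differed from the doxycycline group of the SARS2 line about as often as genes in general. In libraries labelled day 3, 1 of the 8 genes was called, and it was lower, where 13.4% of all genes were called and 6.87% were lower. At day 6, 3 were called, 2 higher and 1 lower, where 28.1% of all genes were called. At day 9, 5 were called, 2 higher and 3 lower, where 46.4% of all genes were called, 22.6% higher and 23.8% lower. The parental line had 4 of 8 higher without doxycycline and 0 lower, where 39.4% of all genes were called (21% higher and 18.4% lower). No member passed as lower there at an unadjusted p under 0.05 or by DESeq2.

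Groups whose libraries did not overlap were common in this series. That held for 4 members at day 3, against 42.1% of all genes, 5 at day 6 (47.2%), 4 at day 9 (50.9%) and 6 in parental cells (53.4%). No label states that the replicates were separate cultures, so the p-values measure the spread between samples, which may be technical. Beside the day 9 values, the summed level of 7 mesenchymal markers was 849 to 1130 CPM, against 690 to 766 CPM with doxycycline, and that of 7 epithelial markers was 55.5 to 63.2 CPM, against 32.8 to 37.3 CPM. Most of the epithelial sum was KRT18, with a mean of 56.2 CPM at day 9 and 32 CPM with doxycycline, and most of the mesenchymal sum was VIM. Single markers went both ways at day 9: KRT18 (0.81, adjusted p = 3.5e-06) and VIM (0.44, adjusted p = 0.00012) were higher, and CLDN4 (-2.25, adjusted p = 0.0016) and COL1A1 (-0.42, adjusted p = 0.037) lower. CLDN4 was near the floor throughout, at 0.224 ± 0.0796 CPM with doxycycline and 0.0456 ± 0.0426 at day 9 (SD, n = 3). Of the epithelial list 1 was higher and 1 lower of 4 tested, and of the mesenchymal list 3 higher and 1 lower of 6. The epithelial marker KRT5 had 0 counts in all libraries. The part of these markers in the member values was not tested.

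**Figure D2:**
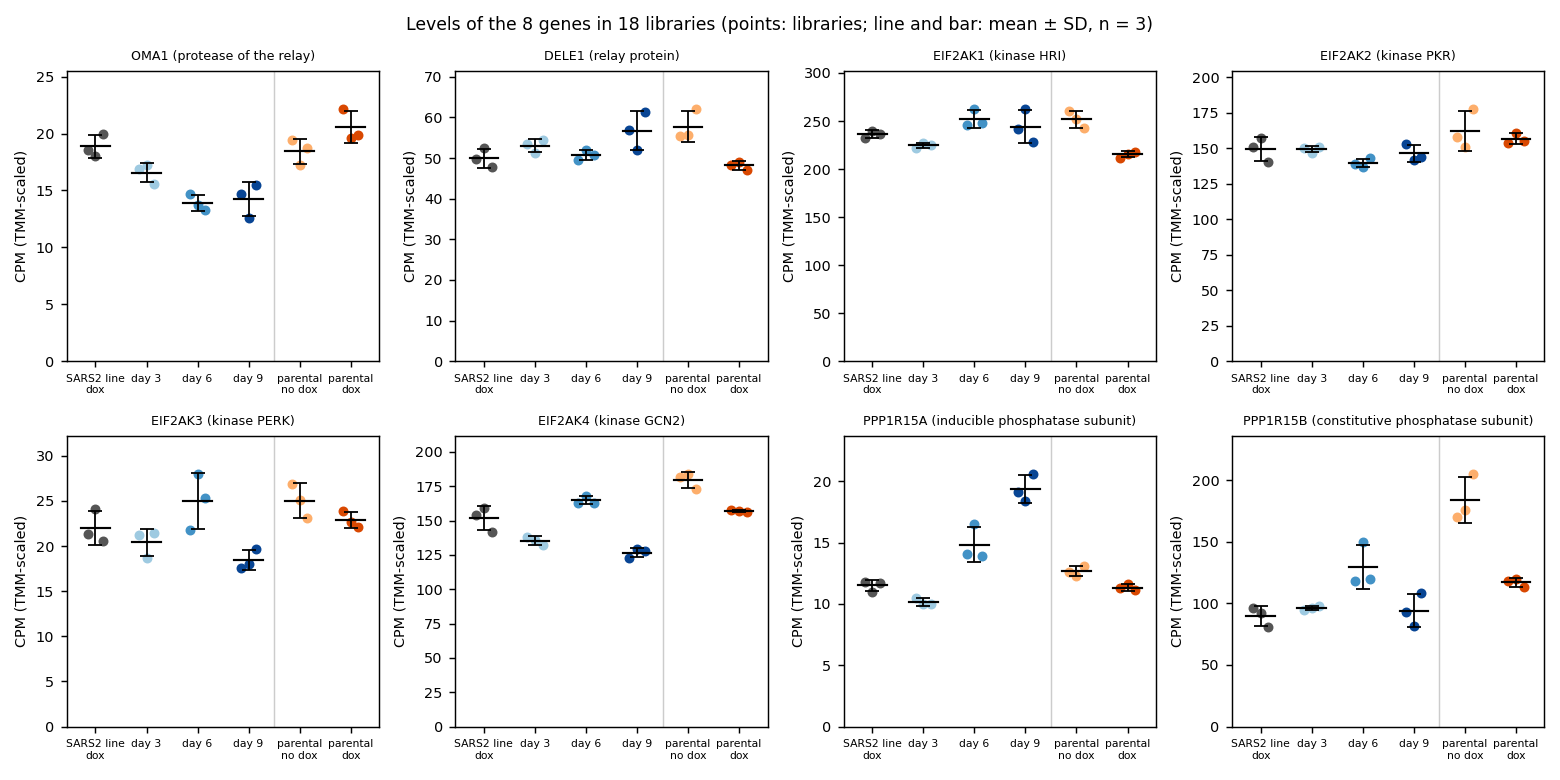
CPM of each gene in all 18 libraries, with mean and SD (n = 3) per group; the SARS2 line runs left to right from doxycycline to day 9, and the parental line without and with doxycycline stands on the right. PPP1R15A is highest at day 9 (18.4 to 20.6 CPM), PPP1R15B in the parental line without doxycycline (170 to 205 CPM), and OMA1 is lower at days 6 and 9 than with doxycycline.

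Of the relay, OMA1 fell at days 6 and 9 in the SARS2 line, and DELE1 differed less. OMA1 had 18.6, 18 and 20 CPM with doxycycline, 16.9, 17.2 and 15.6 CPM in libraries labelled day 3, 14.7, 13.7 and 13.3 CPM at day 6, and 14.7, 12.6 and 15.5 CPM at day 9. Every library of the 3 later groups was below every doxycycline library, and days 6 and 9 overlapped each other. The log2 fold change against doxycycline was -0.44 ± 0.09 (SE) at day 6 (adjusted p = 0.0012), 0.737 of the doxycycline level. For day 9 it was -0.40 ± 0.09 (adjusted p = 0.0011), 0.757 of that level. At day 3 it was -0.18 ± 0.09 and did not pass (adjusted p = 0.18). Parental cells had OMA1 at 19.4, 17.2 and 18.7 CPM without doxycycline and 22.2, 19.6 and 19.9 CPM with it. Those groups did not overlap, but the difference of -0.16 ± 0.09 did not pass (adjusted p = 0.17).

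DELE1, the protein cut by OMA1, had 49.9, 52.4 and 47.7 CPM with doxycycline, 53.5, 51.3 and 54.4 CPM in libraries labelled day 3, 49.5, 52 and 50.7 CPM at day 6, and 57, 51.9 and 61.4 CPM at day 9. All 4 groups of the SARS2 line overlapped with at least one other. The day 9 difference was 0.18 ± 0.07 on the log2 scale (adjusted p = 0.034). It no longer passed without replicate 1 or 3 of either group, where it was 0.13 to 0.18 with an adjusted p of at most 0.12. It also failed when the trend with gene length and span was removed (0.10, adjusted p = 0.27). Parental cells had DELE1 at 55.4, 55.6 and 62.2 CPM without doxycycline and 48.4, 49.1 and 47.1 CPM with it, groups that did not overlap. There it rose by 0.26 ± 0.07 on the log2 scale (adjusted p = 0.0051), and this held in every alternative run. Per length, DELE1 over OMA1 in the SARS2 line was 0.916 ± 0.0894 under doxycycline, then 1.11 ± 0.0862 for day 3, 1.26 ± 0.0896 for day 6 and 1.38 ± 0.0404 for day 9. The same ratio was 1.08 ± 0.0866 in the parental line without doxycycline and 0.81 ± 0.0549 with it (SD, n = 3).

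Among the kinases, EIF2AK1 (HRI) was nearly level in the SARS2 line. It had 232, 240 and 237 CPM with doxycycline, 222, 227 and 225 CPM in libraries labelled day 3, 246, 263 and 248 CPM at day 6, and 242, 262 and 228 CPM at day 9. None of the 3 days passed against doxycycline, with log2 fold changes of -0.08 ± 0.05, 0.09 ± 0.05 and 0.04 ± 0.05. Parental cells had 260, 252 and 243 CPM without doxycycline and 212, 216 and 218 CPM with it. Every parental library without the drug was above every one with it, and EIF2AK1 rose by 0.23 ± 0.05 (adjusted p = 0.0027). Its antisense neighbour AIMP2, a scaffold of the cytosolic synthetase complex, moved the other way in that comparison (-0.83 ± 0.13, adjusted p = 6e-05) and was higher at day 9 (1.01 ± 0.13, adjusted p = 4.5e-06). Its part in the EIF2AK1 counts was not tested.

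EIF2AK2 (PKR) had the narrowest spread of group means of the 8. It had 151, 157 and 140 CPM with doxycycline, 150, 147 and 151 CPM in libraries labelled day 3, 139, 137 and 143 CPM at day 6, and 153, 142 and 144 CPM at day 9. Parental cells had 158, 151 and 178 CPM without doxycycline and 154, 161 and 155 CPM with it. It passed in none of the 10 comparisons, with differences between -0.15 and 0.07 on the log2 scale. With the trend of GC content and length removed EIF2AK2 passed as lower at day 6 (-0.18, adjusted p = 0.02) and as higher at day 9 (0.19, adjusted p = 0.0095). Day 9 against day 6 was then 0.37 (adjusted p = 1.4e-05), and 0.24 with the length and span trend removed (adjusted p = 0.00084). Day 6 against day 3 likewise passed, at -0.21 and -0.19 with these trends removed. EIF2AK2 has the lowest GC content of the 8 genes.

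EIF2AK3 (PERK) and EIF2AK4 (GCN2) had their highest SARS2 line means in libraries labelled day 6 and their lowest in those labelled day 9. EIF2AK4 had 154, 159 and 142 CPM with doxycycline, 138, 136 and 132 CPM at day 3, 163, 168 and 163 CPM at day 6, and 123, 129 and 128 CPM at day 9. The day 3 and day 9 libraries were all below the doxycycline libraries and the day 6 libraries all above. EIF2AK4 fell by 0.26 on the log2 scale at day 9 (SE 0.05, adjusted p = 0.00052), which with the length and span trend removed was -0.10 (adjusted p = 0.13). The lower level at day 3 (-0.17 ± 0.05, adjusted p = 0.042) did not hold without any 1 of the day 3 libraries or without doxycycline replicate 1 or 2, where it was -0.13 to -0.18 with adjusted p of 0.074 to 0.19. Parental EIF2AK4 stood at 182, 184 and 173 CPM without doxycycline and 158, 157 and 156 CPM with it, and rose by 0.20 ± 0.05 (adjusted p = 0.006). That call too was lost with the length and span trend removed (0.07, adjusted p = 0.28). EIF2AK4 has the longest span of the 8 genes.

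EIF2AK3 had 21.3, 24.1 and 20.6 CPM with doxycycline, 21.2, 18.7 and 21.4 CPM in libraries labelled day 3, 21.8, 28 and 25.3 CPM at day 6, and 17.6, 18 and 19.7 CPM at day 9. Only the day 9 libraries were clear of the doxycycline libraries. Their difference, -0.25 ± 0.10 (adjusted p = 0.036), was lost without doxycycline replicate 1 or 2 or day 9 replicate 1 or 2 (-0.18 to -0.28, adjusted p of 0.052 to 0.18). It was also lost with either trend removed. EIF2AK3-DT, the divergent transcript at its start, fell by 2.37 at day 9 (SE 0.21, adjusted p = 7.2e-08), and its part in the EIF2AK3 value was not tested. Parental EIF2AK3 stood at 26.9, 25.1 and 23.1 CPM without doxycycline and 23.9, 22.7 and 22.1 CPM with it, groups that overlapped and did not pass (0.13 ± 0.10, adjusted p = 0.30).

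Both phosphatase genes rose at day 6, and PPP1R15A rose at day 9. PPP1R15A, the inducible subunit, had 11.8, 11 and 11.7 CPM with doxycycline, 10.5, 9.95 and 10 CPM in libraries labelled day 3, 14.1, 16.5 and 13.9 CPM at day 6, and 19.1, 18.4 and 20.6 CPM at day 9. The day 6 and day 9 libraries lay above all doxycycline libraries, and the day 9 libraries above all of day 6. PPP1R15A rose by 0.37 ± 0.08 on the log2 scale at day 6 (1.29-fold, adjusted p = 0.003). For day 9 the rise was 0.75 ± 0.08 (1.68-fold, adjusted p = 8.7e-07). Both held in every alternative run, the day 9 value at 0.61 to 0.79. Day 3 was lower in every library, yet its -0.18 ± 0.08 did not pass (adjusted p = 0.17). Parental PPP1R15A stood at 12.6, 12.3 and 13.1 CPM without doxycycline and 11.3, 11.6 and 11.1 CPM with it. These groups did not overlap, while 0.16 ± 0.08 did not pass (adjusted p = 0.14). It passed as 0.34 (adjusted p = 0.015) with the length and span trend removed and as 0.30 (adjusted p = 0.023) with the GC and length trend removed.

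PPP1R15B, the constitutive subunit, had 96.4, 92.3 and 80.4 CPM with doxycycline, 94.9, 95.8 and 97.9 CPM in libraries labelled day 3, 118, 150 and 120 CPM at day 6, and 92.8, 81.4 and 108 CPM at day 9. The libraries labelled day 6 stood above all others of the line, and day 9 overlapped the doxycycline group. PPP1R15B rose by 0.53 ± 0.10 at day 6 (adjusted p = 0.00088), and day 9 gave 0.07 ± 0.10 (adjusted p = 0.61). With the GC and length trend removed PPP1R15B passed as higher at day 9 (0.23, adjusted p = 0.027). The parental libraries were the highest of the series at 170, 176 and 205 CPM without doxycycline, against 118, 120 and 113 CPM with it. There PPP1R15B rose by 0.65 ± 0.10 (adjusted p = 6.7e-05), 1.57-fold, and the call held in every alternative run. Among the 8 genes it was the largest parental difference. Per length, PPP1R15B over PPP1R15A in the SARS2 line was 2.01 ± 0.209 under doxycycline, then 2.44 ± 0.0964 for day 3, 2.24 ± 0.085 for day 6 and 1.25 ± 0.105 for day 9. The parental ratio was 3.73 ± 0.273 without doxycycline and 2.66 ± 0.0321 with it (SD, n = 3). The day 9 ratios, 1.14 to 1.35, were below those of all other libraries.

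**Figure D3:**
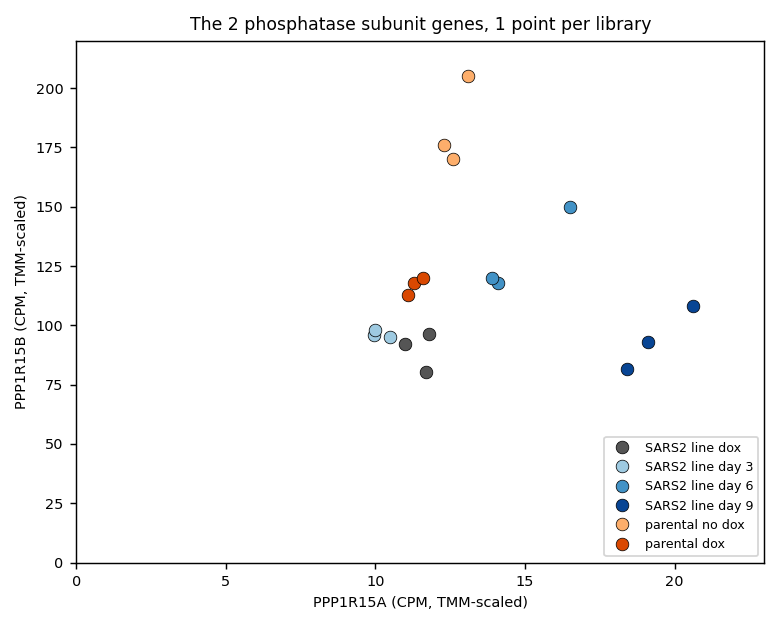
CPM of PPP1R15A (horizontal) and PPP1R15B (vertical) in each of the 18 libraries, coloured by group. The day 9 libraries lie to the right (PPP1R15A 18.4 to 20.6 CPM) at a PPP1R15B level that overlaps the doxycycline libraries, and the parental libraries without doxycycline lie at the top (170 to 205 CPM).

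Setting the days against each other, 6 of the 8 genes differed between libraries labelled day 6 and day 3, 5 higher and 1 lower, where 42.7% of all genes were called (21.9% higher). Between day 9 and day 6, 5 of 8 differed, 2 higher and 3 lower, where 58.8% of all genes were called (30.2% lower). Libraries did not overlap for 7 members in the first of these comparisons (59.6% of all genes) and for 4 in the second (60.7%). From day 3 to day 6, PPP1R15A was higher by 0.55 ± 0.08 (adjusted p = 4e-05), PPP1R15B by 0.43 ± 0.10 (adjusted p = 0.0024) and EIF2AK4 by 0.28 ± 0.05 (adjusted p = 0.00026). These 3 held in every alternative run. EIF2AK3 (0.29 ± 0.10), EIF2AK1 (0.17 ± 0.05) and OMA1 (-0.25 ± 0.09) passed with adjusted p of 0.018, 0.018 and 0.027, and each lost its call without 1 library. For EIF2AK3 those were day 3 replicate 2 and day 6 replicates 2 and 3 (0.19 to 0.28, adjusted p up to 0.14), and for EIF2AK1 day 3 replicate 1 and day 6 replicate 2 (0.13 and 0.15, adjusted p up to 0.11). For OMA1 they were day 3 replicates 1 and 2 and day 6 replicates 2 and 3 (-0.23 to -0.26, adjusted p up to 0.095). From day 6 to day 9, EIF2AK4 (-0.37 ± 0.05, adjusted p = 5.5e-06), EIF2AK3 (-0.44 ± 0.10, adjusted p = 0.00055) and PPP1R15B (-0.46 ± 0.10, adjusted p = 0.00076) fell in every alternative run. PPP1R15A rose further (0.38 ± 0.08, adjusted p = 0.00054), which was 0.19 and did not pass with either trend removed (adjusted p = 0.13 and 0.12). DELE1 passed narrowly (0.16 ± 0.07, adjusted p = 0.049) and not without any one of the day 6 libraries or day 9 replicate 1 or 3 (0.11 to 0.18, adjusted p up to 0.15).

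With doxycycline in both lines, 1 of the 8 genes was lower in the SARS2 line than in the parental line and 0 were higher, where 19.3% of all genes were called (9.97% lower and 9.32% higher). By unadjusted p under 0.05 1 was higher, EIF2AK1, and by DESeq2 0. Libraries did not overlap for 2 members, against 44.9% of all genes. PPP1R15B had 96.4, 92.3 and 80.4 CPM in the SARS2 line and 118, 120 and 113 CPM in the parental line, lower by 0.38 on the log2 scale (-0.38 ± 0.10, adjusted p = 0.013). Without replicate 3 of the SARS2 line it was -0.31 and did not pass (adjusted p = 0.062). EIF2AK1 lay higher in every library, 232 to 240 CPM in the SARS2 line and 212 to 218 CPM in the parental line, and did not pass (0.14 ± 0.05, adjusted p = 0.086), but passed with only these groups in the fit (adjusted p = 0.021).

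The change without doxycycline was then compared between the lines, as the change in the SARS2 line minus that in the parental line. Each change sets 3 libraries against 3 others, and the 3 days share their doxycycline and parental libraries. At day 3, 4 of 8 genes had a lower change in the SARS2 line, where 39.5% of all genes were called (20.9% lower). These were EIF2AK1 (-0.30 ± 0.08, adjusted p = 0.0041), EIF2AK4 (-0.36 ± 0.07, adjusted p = 0.00076), PPP1R15B (-0.55 ± 0.14, adjusted p = 0.0052) and PPP1R15A (-0.34 ± 0.12, adjusted p = 0.028). The PPP1R15A value did not pass without any 1 of 7 libraries: parental replicate 3 without doxycycline, parental replicates 1 and 3 with it, SARS2 line replicates 1 and 3 with it, and day 3 replicates 2 and 3 (-0.31 to -0.34, adjusted p up to 0.062). At day 6, 0 of 8 passed by edgeR's quasi-likelihood test or by DESeq2, where 12.6% of all genes were called (5.49% higher and 7.14% lower). By unadjusted p under 0.05, OMA1 (-0.28 ± 0.13) and DELE1 (-0.24 ± 0.10) had a lower change. At day 9, 4 of 8 passed, 1 higher and 3 lower, where 51.7% of all genes were called (24.4% higher and 27.3% lower). PPP1R15A had the higher change (0.59 ± 0.12, adjusted p = 0.00034), and EIF2AK4 (-0.45 ± 0.07, adjusted p = 4.6e-05), PPP1R15B (-0.58 ± 0.14, adjusted p = 0.0023) and EIF2AK3 (-0.38 ± 0.14, adjusted p = 0.023) the lower. With the length and span trend removed only PPP1R15B still passed, PPP1R15A being 0.32 (adjusted p = 0.078), EIF2AK4 -0.17 (adjusted p = 0.058) and EIF2AK3 -0.18 (adjusted p = 0.28). With the GC and length trend removed PPP1R15A was 0.31 (adjusted p = 0.073), EIF2AK3 -0.23 (adjusted p = 0.16) and PPP1R15B -0.28 (adjusted p = 0.05), none of which passed, while OMA1 passed as lower (-0.26, adjusted p = 0.039) and EIF2AK2 as higher (0.32, adjusted p = 0.0022). The EIF2AK3 call was also lost without parental replicate 1 off or 3 on doxycycline, SARS2 line replicate 2 on it, or day 9 replicate 1 (-0.31 to -0.36, adjusted p up to 0.076).

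**Figure D4:**
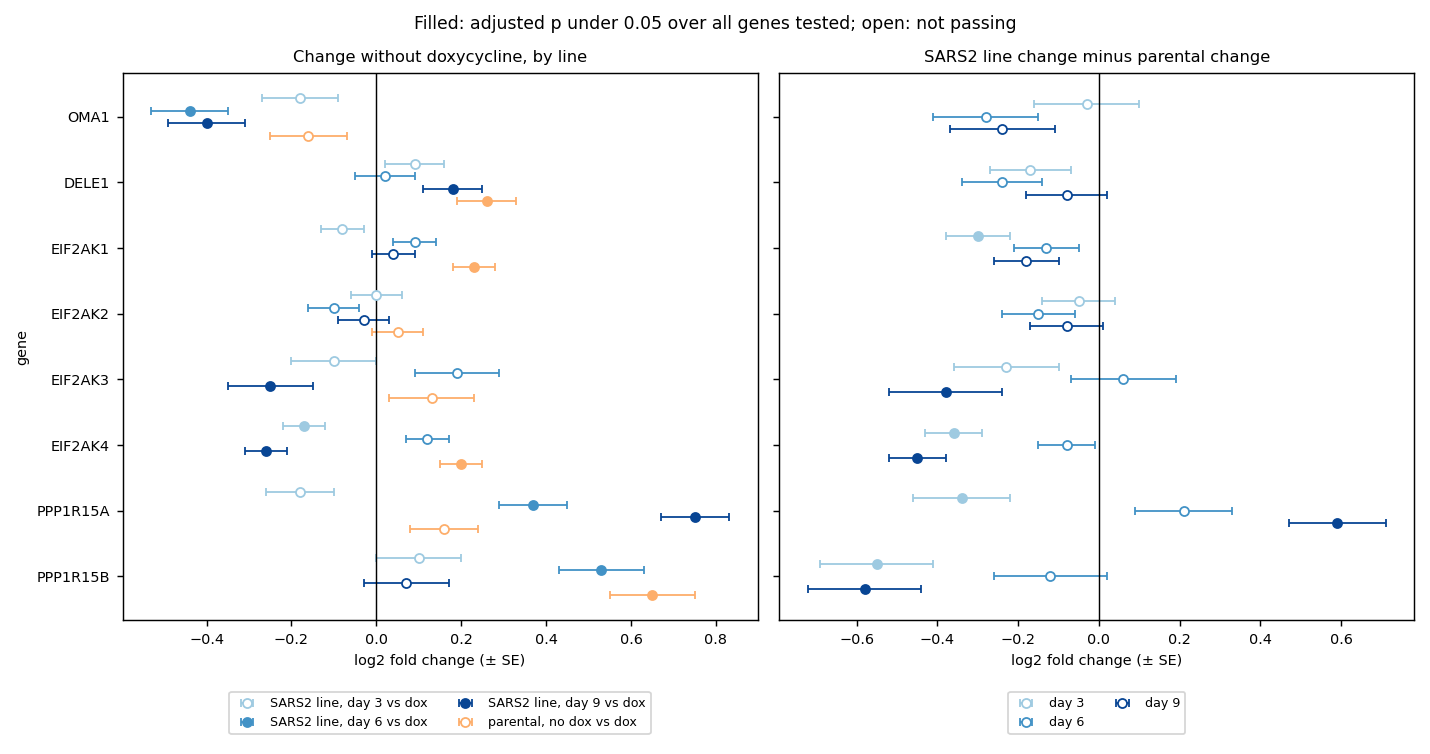
Log2 fold change and SE of each gene for the SARS2 line at days 3, 6 and 9 against doxycycline and the parental line without against with it (left), and the SARS2 line change minus the parental change (right); filled points have an adjusted p under 0.05 over all genes tested. PPP1R15A at day 9 (0.75) and PPP1R15B in the parental line (0.65) are the furthest to the right on the left side.

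Genes around the 8 were read from 7 lists, chosen with earlier results of these data known, and are given as counts of called genes. Shares of all genes called were 14% in each direction at day 6, 22.6% higher and 23.8% lower at day 9, and 21% higher and 18.4% lower in parental cells without doxycycline. Targets and readouts below eIF2alpha were the list with the most genes called higher: 6 of 12 in libraries labelled day 3 (6.5% of all genes), 12 of 12 at day 6 (14%), 11 of 12 at day 9 (22.6%), and also 11 of 12 in parental cells without doxycycline (21%). No readout fell by edgeR, by DESeq2 or at an unadjusted p under 0.05 in these 4 comparisons, although 1 was lower at day 9 without doxycycline replicate 3 or with no low-count filter. Their median log2 fold changes were 0.36, 1.14 and 1.2 for days 3, 6 and 9 and 0.83 for the parental cells, while the median of all genes stayed within 0.03 of 0. CHAC1, a glutathione-degrading enzyme and target of ATF4, rose by 0.66 ± 0.13 for day 3, 1.41 ± 0.13 for day 6 and 2.10 ± 0.13 for day 9, and by 1.92 ± 0.13 in parental cells. DDIT3 (CHOP), the transcription factor known to induce PPP1R15A, had 18.8 ± 0.742 CPM with doxycycline, 20.1 ± 1.47 in libraries labelled day 3, 50.5 ± 6.75 at day 6 and 37.8 ± 6.2 at day 9 (SD, n = 3). It rose by 1.43 ± 0.12 at day 6 and by 1.01 ± 0.12 at day 9, while PPP1R15A had its higher level at day 9. ATF4 itself rose by 0.25 ± 0.06 for day 3, 0.20 ± 0.06 for day 6 and 0.17 ± 0.06 for day 9, with adjusted p of 0.0091, 0.018 and 0.029. Its day 6 call was lost without doxycycline replicate 3 or day 6 replicate 2 (0.19 and 0.16, adjusted p up to 0.094). The ATF4 call for day 9 was lost without doxycycline replicate 1 or 2 or day 9 replicate 3 (0.12 to 0.17, adjusted p up to 0.092), and with the GC and length trend removed (0.04, adjusted p = 0.73). It was also lost with library size alone, no low-count filter, only the groups compared or the length and span trend removed (0.10 to 0.17, adjusted p up to 0.37). The ATF4 call for day 3 was lost with the length and span trend removed (0.26, adjusted p = 0.069).

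Genes of eIF2, its exchange factor and other initiation factors were mostly lower at day 6 and mostly higher at day 9. The other factors in this list were EIF2A, EIF2D, MCTS1, DENR and CDC123. Among them EIF2A, EIF2D and CDC123 were lower at day 6, and at day 9 DENR was higher and EIF2A lower. At day 6, 9 of 13 fell and 0 rose (14% of all genes fell), and at day 9, 7 rose and 1 fell (22.6% rose). None rose at day 6 by DESeq2 or at an unadjusted p under 0.05 either. Without doxycycline replicate 2, 4 rose at day 9, and the 1 that fell was lost without doxycycline replicate 2 or 3 or day 9 replicate 2. EIF2B4, the delta subunit of eIF2B, fell by 0.23 at day 6 (SE 0.08, adjusted p = 0.025) and rose by 0.75 ± 0.08 at day 9 (adjusted p = 2.5e-07). The day 6 value of EIF2B4 did not pass without doxycycline replicate 3 or day 6 replicate 2 or 3 (-0.18 to -0.23, adjusted p up to 0.12), nor with either trend removed (-0.10 and -0.09). EIF2S1, which encodes eIF2alpha, fell by 0.31 at day 6 (SE 0.08, adjusted p = 0.0057) and rose by 0.21 ± 0.08 at day 9 (adjusted p = 0.036). The day 9 value of EIF2S1 did not pass without doxycycline replicate 1 or 2 or day 9 replicate 3 (0.10 to 0.19, adjusted p up to 0.23). Of the 13, 7 fell in parental cells without doxycycline and 2 rose (18.4% of all genes fell), EIF2B4 by 0.60 (SE 0.08, adjusted p = 7.7e-06). List medians were -0.25 for day 6, 0.20 for day 9 and -0.19 for parental cells.

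Mitochondrial genes around the relay, 18 in all, had 8 lower and 1 higher at day 6 (14% of all genes in each direction) and 10 higher and 1 lower at day 9 (22.6% and 23.8% of all genes), with medians of -0.26 and 0.14. They include proteases, prohibitins, import genes and others such as CHCHD2 and CHCHD10, and not all act at the inner membrane. With the length and span trend removed 3 were lower at day 6, and with the GC and length trend removed 5. With the GC and length trend removed or no low-count filter 3 were lower at day 9. At day 9, 6 were higher without doxycycline replicate 2 or day 9 replicate 3, and 3 lower without day 9 replicate 2. Parental cells without doxycycline had 13 lower and 0 higher (18.4% and 21% of all genes), with a median of -0.40; 0 were higher by DESeq2, 1 at an unadjusted p under 0.05, and up to 2 under the other alternatives. PHB1, a prohibitin subunit of the scaffold that restrains OMA1, fell by 0.53 at day 6 (SE 0.08, adjusted p = 9.7e-05) and rose by 0.53 ± 0.08 at day 9 (adjusted p = 2.4e-05). LONP1, the matrix protease reported to degrade DELE1 precursors, rose at every day, by 0.28 ± 0.07, 0.44 ± 0.07 and 0.76 ± 0.07, the day 3 call being lost without doxycycline replicate 2 or day 3 replicate 3 (0.25 and 0.26, adjusted p up to 0.055). OMA1 and PHB1 thus both fell at day 6 and differed in direction at day 9. Parental cells had PHB1 at 156 ± 11.5 CPM without doxycycline and 233 ± 5.61 with it (SD, n = 3). LONP1 there averaged 301 ± 28.9 CPM without doxycycline and 392 ± 14.6 with it.

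Direct partners of the kinases and phosphatases gave 2 higher and 1 lower of 12 at day 6 (14% of all genes in each direction). At day 9, 4 were higher and 4 lower (22.6% and 23.8% of all genes). The medians were 0 and 0.14. Without any one of the 6 libraries at day 6, 0 or 1 were higher, and 0 to 3 under the other alternatives; with the GC and length trend removed 8 were higher at day 9. PPP1CA, a catalytic subunit of PP1, averaged 152 ± 7.75 CPM with doxycycline, 164 ± 4.5 in libraries labelled day 3, 111 ± 4.56 at day 6 and 212 ± 5.97 at day 9 (SD, n = 3). It fell by 0.45 at day 6 (SE 0.07, adjusted p = 0.00018) and rose by 0.48 ± 0.07 at day 9 (adjusted p = 2.7e-05). At day 6 PPP1CA thus moved against both PPP1R15 genes and at day 9 with PPP1R15A. In parental cells without doxycycline PPP1CA was lower too (-0.58 ± 0.07, adjusted p = 8.6e-06 by edgeR's quasi-likelihood test), where PPP1R15B was higher. The catalytic subunits PPP1CB and PPP1CC did not pass at day 6 (-0.12 and -0.10, adjusted p = 0.14 and 0.46). PPP1CB averaged 186 ± 10.6 CPM with doxycycline and 189 ± 4.53 at day 9, and PPP1CC 489 ± 14.3 and 405 ± 67.8. PPP1CC was among the 4 partners called lower at day 9, a count of 3 or 4 with 1 library left out. IMPACT, an inhibitor of GCN2 activation, fell by 0.54 at day 9 (SE 0.07, adjusted p = 2.5e-06), as EIF2AK4 did, while the GCN2 activator GCN1 rose by 0.46 ± 0.07 (adjusted p = 1.9e-05).

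Other lists cover the stress classes of the kinases. Of 15 ER chaperone and folding genes, the surroundings of PERK, 6 rose and 0 fell at day 6, where 14% of all genes rose and 14% fell. None fell by DESeq2 or at an unadjusted p under 0.05, 1 did without day 6 replicate 2, and 3 did with no low-count filter or only the groups compared. The 6 that rose were HERPUD1, ERN1, SEL1L, XBP1, ATF6 and DNAJC3. The rest, from -0.29 (SDF2L1) to 0.28 (DNAJB9), did not pass, among them the chaperones HSPA5 (0.10), HSP90B1 (0.01) and HYOU1 (0.09). At day 9, 6 rose (9 with either trend removed) and 2 fell (22.6% and 23.8% of all genes), or 1 without doxycycline replicate 1 or 2 or day 9 replicate 2. Those higher at day 9 included CRELD2 (0.84 ± 0.12), HERPUD1 (0.74 ± 0.10), HYOU1 (0.68 ± 0.07) and HSPA5 (0.51 ± 0.12). HSP90B1 averaged 1030 ± 23.9 CPM with doxycycline and 1100 ± 147 at day 9 (SD, n = 3). HERPUD1, a factor of ER-associated degradation and also a target of ATF4, led at day 6 with 1.40 ± 0.10, and rose by 0.99 ± 0.10 in parental cells without doxycycline. ERN1 (IRE1), a sensor of ER stress, rose by 0.67 ± 0.15 at day 6 and fell by 0.65 at day 9 (SE 0.15, adjusted p = 0.0012). Of 16 interferon genes, the class that includes EIF2AK2, 5 rose and 4 fell at day 9, beside 22.6% and 23.8% of all genes, and 2 fell without doxycycline replicate 1 or with only the groups compared. IFIT3 rose by 1.34 ± 0.27 and IFIH1, a sensor of double-stranded RNA, fell by 1.07 (SE 0.23, adjusted p = 0.00068). Both genes had low levels. IFIT3 averaged 0.61 CPM with doxycycline and 1.56 at day 9, and IFIH1 1.8 and 0.856 CPM. Of 10 haem and iron genes, linked to HRI, 6 rose and 1 fell at day 9 (22.6% and 23.8% of all genes), with a median of 0.35; with only the groups compared 2 fell. At day 6, 1 rose and 2 fell, where 0 did either way without doxycycline replicate 3 or day 6 replicate 2 or 3, and in parental cells 2 rose, or 0 with the length and span trend removed, and 4 fell. TFRC, the transferrin receptor, rose by 0.68 at day 3 (adjusted p = 0.0012) and by 0.66 ± 0.12 at day 9, was lower at day 6 (-0.36, adjusted p = 0.029) and lower in parental cells (-0.52, adjusted p = 0.0015). Its day 6 call was lost without doxycycline replicate 2 or 3 or day 6 replicate 2 or 3 (-0.33 to -0.36, adjusted p up to 0.093).

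**Figure D5:**
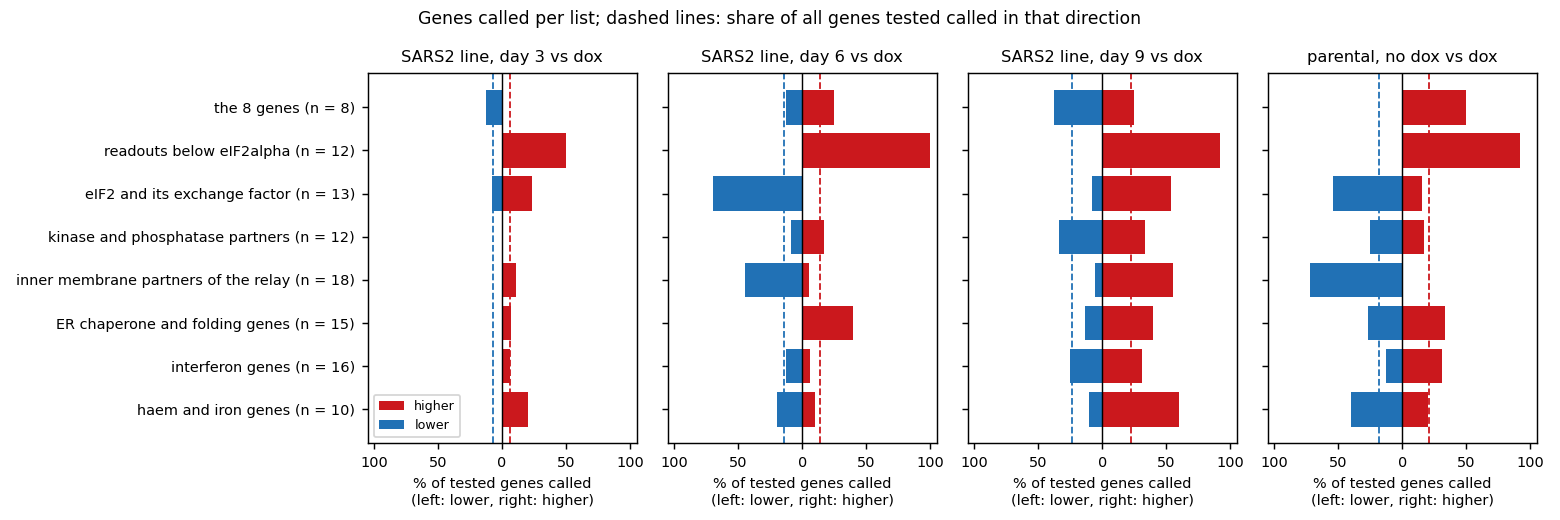
Share of the tested genes of each list called higher (right, red) and lower (left, blue) at days 3, 6 and 9 in the SARS2 line and without doxycycline in the parental line, with dashed lines for the share of all tested genes called in that direction. The readouts below eIF2alpha reach 12 of 12 higher at day 6, and the 8 genes have 3 called at day 6 and 5 at day 9, in both directions.

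Over the 18 libraries, which share lines, treatments and any effect of depth, the pairs of members whose log2 CPM ran most alike were EIF2AK3 with EIF2AK4 (Pearson r = 0.87) and EIF2AK4 with PPP1R15B (r = 0.80). PPP1R15A and PPP1R15B had r = 0.03, OMA1 and PPP1R15A -0.63, and OMA1 and DELE1 -0.24. Searched over 14597 genes with a mean of at least 1 CPM, the genes most like each member were ZBTB43 and CLIP1 for PPP1R15B (r = 0.975 and 0.971), ZNF704 and HERC3 for EIF2AK4 (both 0.973), and NCSTN and POLR3D for PPP1R15A (0.942 and 0.898). For the relay they were MORF4L2 and DYNC1I2 for OMA1 (0.946 and 0.939) and NRDE2 and IL18BP for DELE1 (0.918 and 0.911). The other kinases had ZNF805 and TMEM87B for EIF2AK3 (0.922 and 0.917), LOC124901779 and PRRT2 for EIF2AK1 (0.933 and 0.898), and LRRC57 and PDCL3P4 for EIF2AK2 (0.865 and 0.864). These are descriptions over groups that differ in many genes at the same time.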

How the data were processed

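RNA was sequenced in 18 HAP1 libraries of 6 groups, in 151-bp pairs (Illumina NovaSeq, per the labels' protocols). The authors deposited 3 tables of raw counts per gene, whole numbers without normalization per the file headers; cutadapt 2.3, HISAT2, SAMtools, featureCounts of Subread, DESeq2 and the build GRCh38 are listed in the submitters' processing notes. Annotation release and strand setting of featureCounts: not given in the sources used here. Lines broken within 16 genes were rejoined, and the 6 libraries present in 2 tables were identical and used once. Replicates differed beyond counting noise, with a chi-square per gene of 4.97 to 95 over genes with at least 20 summed counts.

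Counts were fitted here with edgeR 4.0.16 in R 4.3.3: filterByExpr by group (21615 genes), TMM scaling, a quasi-likelihood fit of 1 mean per group over all libraries, and Benjamini-Hochberg adjustment over all genes at 0.05 for 10 comparisons. The common dispersion amounted to a biological coefficient of variation of 0.12. Levels are CPM over TMM-scaled library sizes, and per kilobase between genes. Likeness used log2 CPM with a prior count of 2. The code was tested on simulated counts. Alternatives were DESeq2 1.42.0, its size factors, library size alone, no low-count filter, only the groups compared, a replicate block, removal of a length and span trend or a GC and length trend with splines of 5 degrees of freedom (17370 genes for GC), and leaving out each library.

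The members, lists and motifs were chosen with earlier results of these data known. Named were all 8 members, SARS2, genes overlapping member exons, up to 4 called genes with the largest change per list and comparison, and the 2 genes most like each member. DDIT3, ATF4, GCN1, EIF2S1, EIF2B4, PPP1CA, PPP1CB and PPP1CC were in part named outside that rule, after their values were seen, for their known link to a member. Some ER genes were named outside it to describe their list.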

Additional observations from a re-analysis of the deposited data

Results flagged for a closer look

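The change without doxycycline differed between the SARS2 line and the parental line for 8 of the member values, by the test of the difference itself (edgeR's quasi-likelihood test, Benjamini-Hochberg over all genes). At day 3 the SARS2 line change was lower, with differences of -0.30 for EIF2AK1, -0.36 for EIF2AK4, -0.34 for PPP1R15A and -0.55 for PPP1R15B on the log2 scale. At day 9 it was lower, with differences of -0.38 for EIF2AK3, -0.45 for EIF2AK4 and -0.58 for PPP1R15B, and higher by 0.59 for PPP1R15A. Over all genes 39.5% were called for this difference at day 3 and 51.7% at day 9, so 4 of 8 members at each day is near the general share. The day 3 call of PPP1R15A was lost without any one of 7 libraries (-0.31 to -0.34, adjusted p up to 0.062). Its day 9 value was 0.32 and 0.31 with the length and span or the GC and length trend removed and did not pass (adjusted p = 0.078 and 0.073), and PPP1R15B gave -0.28 under the second of these (adjusted p = 0.05). Calls of EIF2AK3 and EIF2AK4 at day 9 were also lost with the length and span trend removed (-0.18 and -0.17). Among marker genes KRT18 and VIM were higher at day 9 and CLDN4 (at most 0.417 CPM in any library) and COL1A1 lower. The part of these markers in the differences was not tested.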

How the results depend on the processing

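The 8 genes gave 80 values over the 10 comparisons. All 80 kept direction and side of the threshold with DESeq2 and with its size factors, 79 with the replicate block, 76 with only the groups compared, 72 with no low-count filter, 71 with library size alone, 65 with the GC and length trend removed and 64 with the length and span trend removed, and 582 of 624 did when 1 library was left out. The cause of these changes was not tested. Members called lower at day 3 numbered 0 with library size alone, no filter or the length and span trend removed. Members called lower at day 6 numbered 2 with either trend removed. At day 9, members called higher numbered 1 with library size alone, no filter, only the groups compared or the length and span trend removed, and under the last 1 was lower. Between days 6 and 3, 0 were lower with library size alone or no filter, and with the length and span trend removed 3 were higher and 2 lower. Between days 9 and 6, 1 was higher with library size alone, no filter, only the groups compared, the length and span trend removed or the replicate block. For the difference between lines at day 9, 5 were lower with library size alone, and 0 were higher and 1 lower with the length and span trend removed. EIF2AK2 reversed with the GC and length trend removed, to 0.19 at day 9 and 0.32 in the difference between lines.

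With only the groups compared, 6446 of all genes were called at day 3 (2889 in the joint fit), and 7295 between lines on doxycycline (4171), with 1 member higher. Without 1 library the calls over all genes were 1107 to 2620 at day 3, 3934 to 5862 at day 6, 2610 to 3896 between lines and 1660 to 3361 for the difference at day 6 (2729). Members called were then 0 to 1 lower at day 3, 1 to 2 higher at day 9, 3 to 5 higher and 0 to 1 lower between days 6 and 3, 1 to 2 higher between days 9 and 6, and 0 to 1 lower between lines. Library size alone made 64.3% of calls at day 6 higher (50% with TMM) and 38.6% between days 9 and 6 (48.7%), and moved the median of all genes to -0.145 there and to -0.144 in the difference at day 9. Replicate numbers did not pair the samples: deviations of libraries with the same number correlated at -0.25 to 0.17, and 5 of 18 libraries correlated best with their own number. The replicate block gave 2674 calls over all genes at day 3 and 9888 at day 9, and among members it ended the DELE1 call between days 9 and 6 (0.16, adjusted p = 0.061). With 3 libraries a group and counts of at least 768 for every member in every library, the SE of a member's log2 difference was 0.05 to 0.14.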
